A study of Mus musculus with 9 samples.

Results

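Transcript levels of 10 genes of the NRF2 antioxidant response were described in mouse CD8+ T cells that had been sorted by red fluorescence after contact with stromal cells whose mitochondria were labelled red. The genes are Nfe2l2, Keap1, Hmox1, Osgin1, Nqo1, Gclm, Gclc, Txnrd1, Srxn1 and Prdx1, which are 10 of the 55421 genes in the deposited count table. They were chosen by symbol when their levels and fold changes in these same libraries were already known, so their values are given as a description. Counts of these genes past a test's threshold are printed once, with nothing read from them. All 10 passed the filter on low counts that left 15711 genes.

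In all 3 groups the source of the T cells was spleen of Pmel Ly5.1 mice. Pmel mice carry a transgenic T-cell receptor against a melanocyte antigen, and Ly5.1 is a variant of the surface protein CD45 used to recognise transferred cells. MitoPositive cells had been co-cultured for 36 h with DM5 cells, which are immortalised stromal cells from the bone marrow of BL6 mice with DsRed in their mitochondria, and were sorted as DsRed positive. MitoNegative cells came from the same kind of co-culture and were sorted as DsRed negative. Monoculture cells had no co-culture. Each group had 3 libraries, lettered B, C and D, and the labels do not say whether the letters are separate mice, so the p-values below measure only the spread between these samples. The stromal partner was a single line. The medium named for co-cultured cells held β-mercaptoethanol, a reducing agent. The medium, the length of culture and any sort of the monoculture cells are not given by the labels, and the titles carry a time of 0 h that the labels do not explain. Total RNA was sequenced after removal of ribosomal RNA, with 53546152 to 74722832 counts per library.

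NRF2, encoded by Nfe2l2, is a transcription factor that KEAP1 binds and sends for degradation in unstressed cells. Oxidants and electrophiles modify KEAP1, NRF2 then accumulates, pairs with a small MAF protein and binds antioxidant response elements near genes for glutathione synthesis, thioredoxin recycling, heme breakdown and detoxification. NRF2 is controlled largely at the level of its protein, which RNA sequencing does not measure. T cells take up cystine and make glutathione when they are activated, and stimulation through the T-cell receptor generates reactive oxygen.

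The core of the antioxidant response element (ARE, TGACNNNGC) and the overlapping AP-1 element (TGACTCA), bound by FOS and JUN proteins, were searched on both strands of the promoters. Each promoter is RefSeq's window of 300 bases in build GRCm38.p6, with 250 bases before and 50 after a start site, and 8 of the 10 genes matched by symbol, with 10 windows because Txnrd1 has 3 start sites. Hmox1 and Gclc had no entry. An ARE core was found in the windows of 5 genes (Nfe2l2, Gclm, Txnrd1, Srxn1 and Prdx1) and an AP-1 element in 3 (Osgin1, Srxn1 and Prdx1). Among 32851 RefSeq promoters of the same length, 12.4% held the ARE core, 5.20% the AP-1 element and 0.454% the combined letters TGACTCAGC. The windows of the 5 genes below are shown because Osgin1 and Srxn1 differed most between the groups among the genes with an entry, Gclm and Txnrd1 differed in the other direction, and Prdx1 holds both motifs at 1 place. Capitals mark ARE cores and AP-1 elements.
Osgin1 (chr8:119436897-119437196, plus strand): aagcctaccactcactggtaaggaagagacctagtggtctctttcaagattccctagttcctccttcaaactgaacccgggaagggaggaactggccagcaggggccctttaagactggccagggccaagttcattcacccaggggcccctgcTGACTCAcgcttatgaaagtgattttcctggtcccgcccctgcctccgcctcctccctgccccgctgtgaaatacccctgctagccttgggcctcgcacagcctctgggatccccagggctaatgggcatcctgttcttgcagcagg
Srxn1 (chr2:152105274-152105573, plus strand): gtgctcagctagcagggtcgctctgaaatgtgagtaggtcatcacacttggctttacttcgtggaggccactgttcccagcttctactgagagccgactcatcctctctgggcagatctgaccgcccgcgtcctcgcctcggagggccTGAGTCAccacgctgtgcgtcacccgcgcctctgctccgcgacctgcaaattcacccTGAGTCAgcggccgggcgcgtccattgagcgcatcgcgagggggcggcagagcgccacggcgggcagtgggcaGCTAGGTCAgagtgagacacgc
Prdx1 (chr4:116685349-116685648, plus strand): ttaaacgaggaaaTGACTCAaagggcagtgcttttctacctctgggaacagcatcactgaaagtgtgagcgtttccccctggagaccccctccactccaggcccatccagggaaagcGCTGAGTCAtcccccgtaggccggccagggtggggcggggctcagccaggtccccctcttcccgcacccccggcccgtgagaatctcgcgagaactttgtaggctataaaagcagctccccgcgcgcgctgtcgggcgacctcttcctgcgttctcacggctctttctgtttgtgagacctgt
Gclm (chr3:122245307-122245606, plus strand): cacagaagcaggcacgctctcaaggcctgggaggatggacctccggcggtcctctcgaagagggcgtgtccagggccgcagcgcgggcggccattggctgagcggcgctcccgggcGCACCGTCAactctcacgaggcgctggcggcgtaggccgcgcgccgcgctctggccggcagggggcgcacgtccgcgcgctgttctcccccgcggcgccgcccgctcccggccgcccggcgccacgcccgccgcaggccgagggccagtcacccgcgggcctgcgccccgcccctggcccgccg
Txnrd1, its second start site (chr10:82858956-82859255, plus strand): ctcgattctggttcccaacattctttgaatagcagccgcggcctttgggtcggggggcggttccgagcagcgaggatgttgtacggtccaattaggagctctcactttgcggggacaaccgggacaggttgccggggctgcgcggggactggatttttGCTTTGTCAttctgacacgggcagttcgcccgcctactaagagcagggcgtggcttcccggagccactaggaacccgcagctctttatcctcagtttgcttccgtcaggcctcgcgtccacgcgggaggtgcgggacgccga

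In the Osgin1 window the single AP-1 element began 97 bases before that window's start site, and there was no ARE core. This window begins at base 119436897, inside the annotated gene, which begins at base 119434124 on the same strand. The sequence before the annotated beginning of Osgin1 was not searched. The Srxn1 window held AP-1 elements 102 and 45 bases before the start site and an ARE core 28 bases after it. The letters of the element at 45 bases run on as TGAGTCAGC, which is not the searched form TGACNNNGC. Variants of the ARE core were not searched. The Prdx1 window held an AP-1 element 237 bases before the start site. Its ARE core, 133 bases before the start, shares its letters with a second AP-1 element, because the letters read TGACTCAGC on the opposite strand. The ARE cores of Gclm and of the second Txnrd1 start lay 134 and 92 bases before the start site. The presence of these letters describes the sequence and says nothing about binding of either factor in these cells.

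Both co-cultured groups differed from monoculture in the same directions for most of the 10 genes. Osgin1, Hmox1 and Srxn1 were 2.20 to 6.29-fold higher in the co-cultured groups, while Gclm, Gclc and Txnrd1 were lower. The ranges of MitoPositive and MitoNegative cells overlapped in 8 of the 10 genes and did not in 2, where 20.0% of all genes did not overlap. These 2 were Srxn1, higher in MitoPositive cells, and Nfe2l2 itself, lower in MitoPositive cells. The 2 comparisons with monoculture share the same 3 monoculture libraries.

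**Figure D1:**
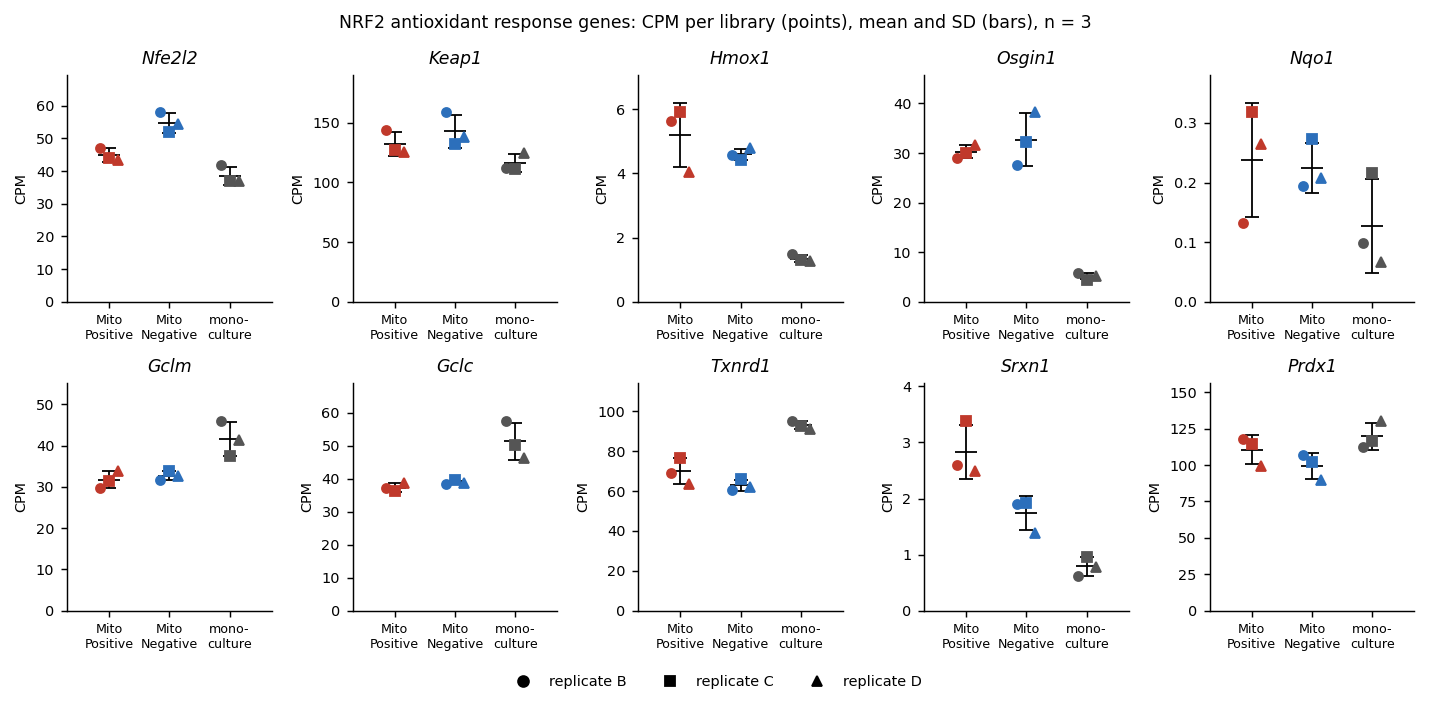
Level of the 10 genes in each library in CPM (counts scaled to a common library size, vertical axes from 0), with MitoPositive, MitoNegative and monoculture from left to right. Points are single libraries, with a shape for each replicate letter, and bars are the mean and SD of 3 libraries. Osgin1 lies between 27.6 and 38.2 CPM in the 6 co-cultured libraries and at 5.82 CPM or below in monoculture.

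Nfe2l2, the gene of NRF2 itself, was highest in MitoNegative cells. Nfe2l2 (ENSMUSG00000015839.6, GRCm38 chr2:75675513-75704641, minus strand) had 47.2, 44.1 and 43.3 CPM in MitoPositive libraries B, C and D, 57.9, 51.9 and 54.5 CPM in MitoNegative libraries, and 41.8, 37.0 and 36.9 CPM in monoculture libraries. None of the 3 groups overlapped, with MitoNegative highest and monoculture lowest. The log2 difference between MitoPositive and MitoNegative cells was -0.29 ± 0.0673 (SE), which is 1.22-fold higher in MitoNegative cells, and within letters B, C and D it was -0.30, -0.23 and -0.33. Against monoculture the log2 difference was 0.22 ± 0.0677 for MitoPositive and 0.51 ± 0.0677 for MitoNegative cells.

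Keap1 (ENSMUSG00000003308.15, chr9:21229730-21239361, minus strand), which encodes the adaptor that hands NRF2 to a ubiquitin ligase, had 144, 127 and 126 CPM in MitoPositive, 159, 132 and 138 CPM in MitoNegative and 113, 112 and 125 CPM in monoculture libraries. The MitoPositive and MitoNegative ranges overlapped, and every co-cultured library lay above the 3 monoculture libraries, by a narrow margin for MitoPositive D. The log2 difference was -0.11 ± 0.0821 between MitoPositive and MitoNegative cells, and against monoculture it was 0.18 ± 0.0822 for MitoPositive and 0.30 ± 0.0822 for MitoNegative cells. The MitoPositive value over monoculture was 0.12 without MitoPositive B and 0.28 without replicate D in all groups. As RPKM, which is CPM divided by the exon length in kilobases, Keap1 averaged 28.1 ± 2.17 in MitoPositive cells, 30.5 ± 2.98 in MitoNegative cells and 24.8 ± 1.60 in monoculture cells (SD, n = 3 each), against 11.8 ± 0.536, 14.4 ± 0.798 and 10.2 ± 0.731 for Nfe2l2 in the same 3 groups. Transcripts of the inhibitor were thus more abundant than those of the factor in each group.

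Osgin1 had the widest range of group means of the 10 genes on the log2 scale. Osgin1 (ENSMUSG00000074063.10, chr8:119434124-119446256, plus strand), an oxidative stress induced growth inhibitor, had 29.0, 30.1 and 31.6 CPM in MitoPositive, 27.6, 32.2 and 38.2 CPM in MitoNegative and 5.82, 4.49 and 5.27 CPM in monoculture libraries. Every co-cultured library lay far above the monoculture libraries, and the MitoPositive values fell inside the MitoNegative range. The log2 difference from monoculture was 2.54 ± 0.126 (5.83-fold) for MitoPositive and 2.65 ± 0.126 (6.29-fold) for MitoNegative cells. Between MitoPositive and MitoNegative cells it was -0.11 ± 0.114, with MitoPositive higher in 1 of 3 letters.

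Hmox1 encodes heme oxygenase 1, which splits heme into biliverdin, iron and carbon monoxide (ENSMUSG00000005413.8, chr8:75093621-75100589, plus strand). It had 5.64, 5.90 and 4.04 CPM in MitoPositive, 4.57, 4.42 and 4.79 CPM in MitoNegative and 1.47, 1.30 and 1.26 CPM in monoculture libraries. All co-cultured libraries exceeded all monoculture libraries. MitoPositive B and C were above the MitoNegative libraries and MitoPositive D was below them. The log2 difference from monoculture was 1.95 ± 0.169 (3.86-fold) for MitoPositive and 1.77 ± 0.169 (3.41-fold) for MitoNegative cells, and it was 0.18 ± 0.157 between MitoPositive and MitoNegative cells.

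Nqo1 encodes a quinone reductase that is among the most used reporters of NRF2 activity in other tissues (ENSMUSG00000003849.8, chr8:107388225-107403206, minus strand). It was barely present, with 4 to 19 counts per library and 115 counts over the 9 libraries. The values were 0.132, 0.317 and 0.265 CPM in MitoPositive, 0.193, 0.272 and 0.207 CPM in MitoNegative and 0.0983, 0.216 and 0.0662 CPM in monoculture libraries, and the ranges overlapped in all 3 comparisons. The log2 difference from monoculture, 0.87 ± 0.496 for MitoPositive and 0.82 ± 0.495 for MitoNegative cells, was poorly determined at this depth. Single libraries set its size. Without monoculture C it was 1.48 for MitoPositive and 1.42 for MitoNegative cells, and without monoculture D it was 0.58 and 0.52.

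Both subunits of glutamate-cysteine ligase were lower in co-culture. Gclc (ENSMUSG00000032350.9, chr9:77754535-77794485, plus strand) encodes the catalytic subunit of glutamate-cysteine ligase, the rate-limiting enzyme of glutathione synthesis. It had 37.1, 36.2 and 38.7 CPM in MitoPositive, 38.5, 39.6 and 38.6 CPM in MitoNegative and 57.5, 50.4 and 46.4 CPM in monoculture libraries. The co-cultured libraries were tightly grouped and all lay below the monoculture libraries. The log2 difference from monoculture was -0.46 ± 0.0732 for MitoPositive and -0.40 ± 0.0731 for MitoNegative cells, and it was -0.06 ± 0.0733 between MitoPositive and MitoNegative cells.

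Gclm (ENSMUSG00000028124.15, chr3:122245557-122270732, plus strand) encodes the modifier subunit of the same ligase. It had 29.8, 31.5 and 33.8 CPM in MitoPositive, 31.5, 33.7 and 32.7 CPM in MitoNegative and 45.9, 37.5 and 41.4 CPM in monoculture libraries. Again every co-cultured library was below every monoculture library, and MitoPositive and MitoNegative cells overlapped. The log2 difference from monoculture was -0.39 ± 0.0779 for MitoPositive and -0.35 ± 0.0778 for MitoNegative cells, and it was -0.04 ± 0.0779 between MitoPositive and MitoNegative cells. Without replicate B in all groups the value for MitoPositive cells over monoculture was -0.26.

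The thioredoxin and peroxiredoxin genes differed in direction among themselves. Txnrd1 (ENSMUSG00000020250.10, chr10:82833951-82897712, plus strand) encodes cytosolic thioredoxin reductase, which returns thioredoxin to its reduced form. It had 69.2, 76.7 and 63.7 CPM in MitoPositive, 60.5, 65.8 and 62.1 CPM in MitoNegative and 95.1, 92.6 and 91.1 CPM in monoculture libraries. Both co-cultured groups lay wholly below monoculture, with log2 differences of -0.41 ± 0.0687 for MitoPositive and -0.57 ± 0.0688 for MitoNegative cells. Between MitoPositive and MitoNegative cells it was 0.15 ± 0.0688, higher in MitoPositive cells in 3 of 3 letters although the ranges overlapped.

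Srxn1 (ENSMUSG00000032802.8, chr2:152105516-152111376, plus strand) encodes sulfiredoxin, which repairs over-oxidised peroxiredoxins. It had 2.60, 3.38 and 2.50 CPM in MitoPositive, 1.90, 1.92 and 1.39 CPM in MitoNegative and 0.623, 0.964 and 0.778 CPM in monoculture libraries. The 3 groups did not overlap, with MitoPositive highest and monoculture lowest. Of the 10 genes it had the widest gap between MitoPositive and MitoNegative cells, with a log2 difference of 0.70 ± 0.211 (1.62-fold) that was 0.45, 0.82 and 0.84 within letters B, C and D. Against monoculture the log2 difference was 1.84 ± 0.225 (3.57-fold) for MitoPositive and 1.14 ± 0.226 (2.20-fold) for MitoNegative cells. These levels rest on 38 to 197 counts per library.

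Prdx1 (ENSMUSG00000028691.12, chr4:116685544-116700822, plus strand) encodes an abundant cytosolic peroxiredoxin, a substrate of sulfiredoxin. It had 118, 115 and 99.4 CPM in MitoPositive, 107, 102 and 89.6 CPM in MitoNegative and 112, 117 and 130 CPM in monoculture libraries. MitoPositive exceeded MitoNegative cells in 3 of 3 letters by a log2 difference of 0.15 ± 0.0867, with overlapping ranges. The MitoNegative libraries lay below the monoculture libraries, with a log2 difference of -0.27 ± 0.0867, and the MitoPositive libraries overlapped them, at -0.11 ± 0.0866. Both values depended on replicate D, and without that letter in all groups they were -0.13 for MitoNegative and 0.03 for MitoPositive cells.

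**Figure D2:**
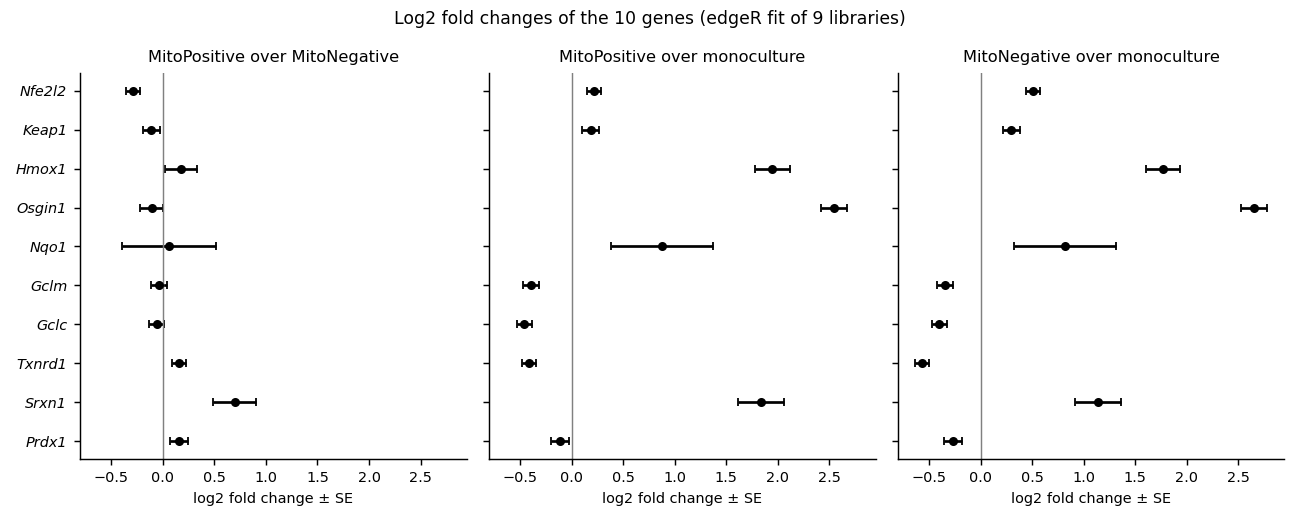
Log2 fold changes of the 10 genes with their standard errors, from the edgeR fit of 9 libraries, for MitoPositive over MitoNegative, MitoPositive over monoculture and MitoNegative over monoculture. Osgin1, Hmox1 and Srxn1 lie above 1 in both comparisons with monoculture, Gclm, Gclc and Txnrd1 lie below 0 in both, and Srxn1 lies farthest above 0 for MitoPositive over MitoNegative.

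By edgeR's quasi-likelihood test with Benjamini-Hochberg adjustment over 15711 genes at a threshold of 0.05, 0 of the 10 genes passed for MitoPositive over MitoNegative, where 0.165% of all genes did. With the replicate letter as a block 1 of 10 passed, Nfe2l2, which was lower, where 2.34% of all genes passed. DESeq2 also called 1 of 10, again Nfe2l2 (log2 difference -0.29), where it called 2.66% of all genes, and limma voom called 0 of 10, where it called 0.433% of all genes. For MitoPositive over monoculture 4 passed as higher and 3 as lower, where 42.2% of all genes passed, 22.3% as higher and 19.9% as lower. For MitoNegative over monoculture 5 passed as higher and 4 as lower, where 38.9% of all genes passed, 20.6% as higher and 18.3% as lower. Since the genes were chosen with these comparisons known, nothing is read from these counts. The CPM ranges of MitoPositive and MitoNegative cells did not overlap in 2 of the 10 genes, where 20.0% of all genes did not overlap. They did not overlap in 8 of 10 for MitoPositive against monoculture and in 9 of 10 for MitoNegative against monoculture, where 51.6% and 48.7% of all genes did not. The median log2 fold change of the 10 genes was 0.01, 0.20 and 0.40 in these 3 comparisons, and that of all genes was within 0.01 of 0.

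**Figure D3:**
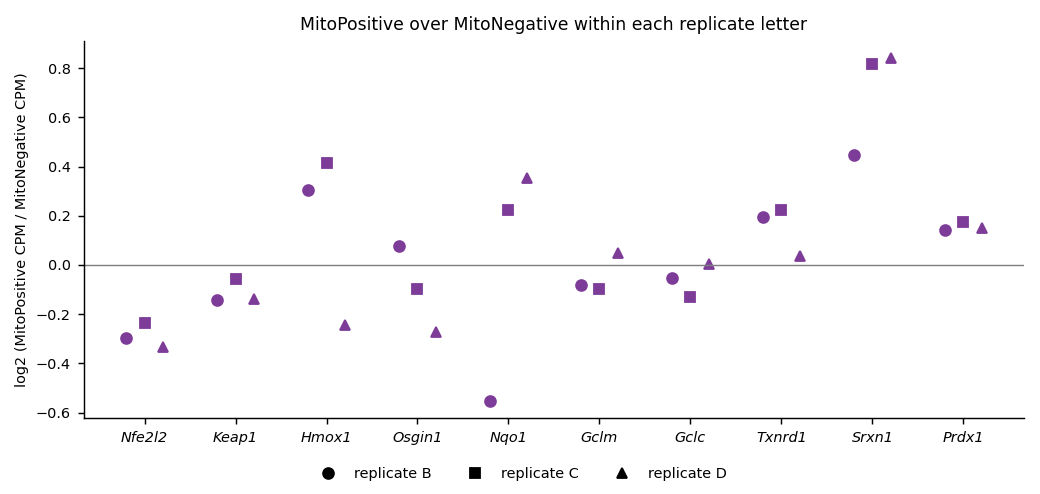
Log2 ratio of MitoPositive to MitoNegative CPM within each replicate letter for the 10 genes, 1 point per letter. Srxn1, Txnrd1 and Prdx1 are above 0 and Nfe2l2 and Keap1 below 0 in 3 of 3 letters, and the other 5 genes have points on both sides of 0.

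The direction was the same in 3 of 3 letters for 5 of the 10 genes between MitoPositive and MitoNegative cells, where 49.9% of all genes kept 1 direction. Of these 5, Srxn1, Txnrd1 and Prdx1 were higher in MitoPositive cells and Nfe2l2 and Keap1 were lower. In bulk RNA a change in the share of cells that express a gene and a change in the RNA per cell cannot be told apart.

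Per length, the highest 2 and the lowest 3 of the 10 genes were the same in the 3 groups, and the order between them differed. Prdx1 was highest, with 36.4 ± 3.28 RPKM in MitoPositive cells, 32.7 ± 2.94 RPKM in MitoNegative cells and 39.4 ± 3.04 RPKM in monoculture cells (SD, n = 3 each). Keap1 followed it in each group, within 1 SD of it in MitoNegative cells alone. Nqo1 was lowest, at 0.153 ± 0.0616, 0.144 ± 0.0270 and 0.0817 ± 0.0508 RPKM in the same 3 groups, and Srxn1 and Hmox1 came next above it.

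Osgin1 took the fourth place in both co-cultured groups and the seventh in monoculture. Its level was 11.3 ± 0.487 RPKM in MitoPositive and 12.2 ± 1.99 RPKM in MitoNegative cells, against 1.94 ± 0.250 RPKM in monoculture. In MitoPositive cells it did not differ beyond the spread from its neighbour Nfe2l2, nor did Gclc, at 9.91 ± 0.345 RPKM, from Txnrd1, at 9.86 ± 0.923 RPKM. Gclc and Txnrd1 were also neighbours in monoculture, at 13.7 ± 1.49 and 13.1 ± 0.278 RPKM, and held the third and the fourth place there. Nfe2l2 was in the third place in both co-cultured groups and in the fifth in monoculture, behind Gclc and Txnrd1. Hmox1 had 2.97 ± 0.574, 2.62 ± 0.104 and 0.767 ± 0.0659 RPKM in MitoPositive, MitoNegative and monoculture cells, so its higher level in co-culture was still below that of Gclm, the gene next above it, in MitoPositive and MitoNegative cells.

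Some reads of these genes could belong to overlapping genes, since the sources used here do not give the strandedness of counting. On the opposite strand, Gm17494 overlaps Gclm and had 921 counts over the 9 libraries, 4.47% of those of Gclm, and Gm16754 overlaps Keap1 with 1191 counts, 1.55% of those of Keap1. Overlapping genes of Txnrd1 and Nfe2l2 had at most 124 counts. The pseudogene Prdx1-ps had 0 counts, which does not show how reads of near-identical copies were assigned.

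The genes whose profiles over the 9 libraries were most like those of the 3 genes with the widest range of group means on the log2 scale were found by the root mean square difference of log2 CPM, each profile centred on its own mean, among 10616 genes. For Osgin1 they were Gipc3 (0.21) and Dapk2 (0.22), for Hmox1 Serpinb9 (0.12) and Pvt1 (0.13), and for Srxn1 Hk2 (0.17) and Cemip2 (0.17). Dapk2, a death-associated protein kinase, averaged 81.4 CPM in MitoPositive, 73.9 CPM in MitoNegative and 14.7 CPM in monoculture libraries. Serpinb9, an inhibitor of granzyme B, averaged 110 CPM in MitoPositive, 86.1 CPM in MitoNegative and 27.1 CPM in monoculture libraries. Hk2, the hexokinase that traps glucose at the start of glycolysis, averaged 71.6 CPM in MitoPositive, 45.0 CPM in MitoNegative and 17.8 CPM in monoculture libraries.

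The other genes of the pathway were counted in 6 lists of 120 genes, without the 10 genes above, of which 106 were tested. The lists were set from textbook knowledge with earlier results of these data known. For MitoPositive over MitoNegative 0 of 106 passed edgeR's test, where 0.165% of all genes did, and 16 had p under 0.05 before adjustment, as did 1646 of all 15711 genes. The number called was 5 by DESeq2, where 2.66% of all genes were called, and 0 by limma voom, where 0.433% of all genes were called. These fits are unpaired. With the replicate letter as a block in edgeR 1 of 106 passed, where 2.34% of all genes did. For MitoPositive over monoculture 30 passed as higher and 25 as lower, which is 51.9% of those tested beside 42.2% of all genes. For MitoNegative over monoculture 32 passed as higher and 28 as lower, which is 56.6% beside 38.9% of all genes. The median log2 fold change over the 106 genes was -0.01 for MitoPositive and -0.03 for MitoNegative over monoculture.

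**Figure D4:**
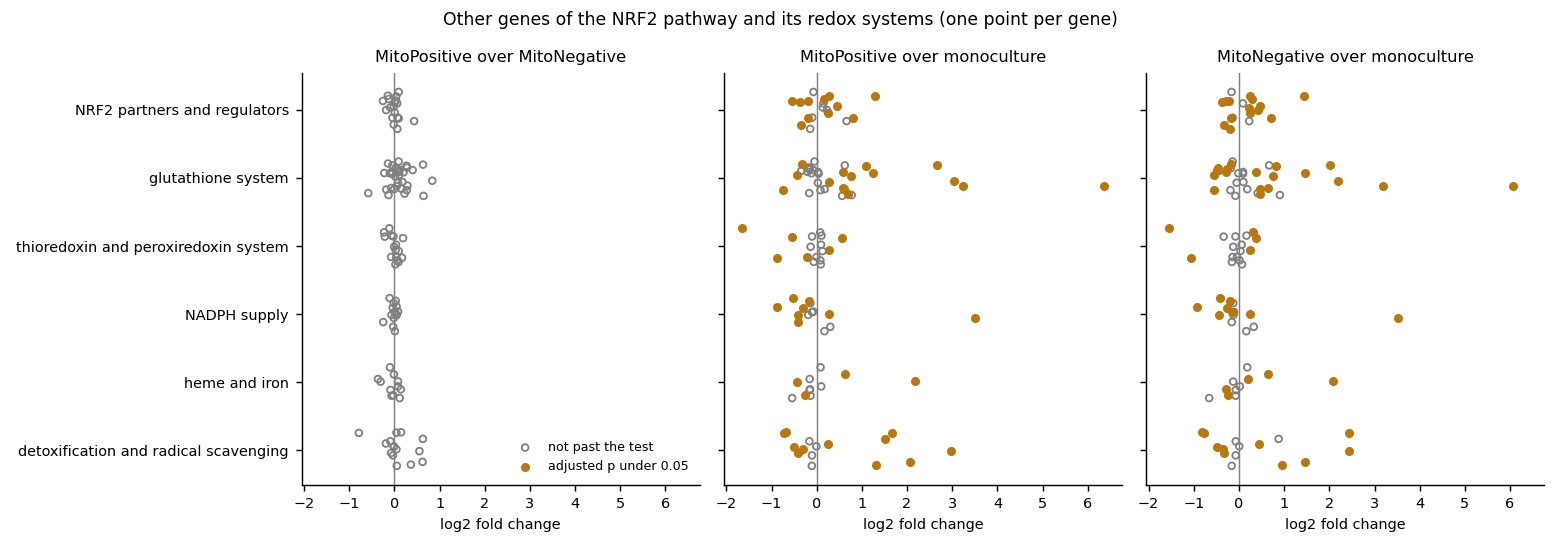
Log2 fold changes of 106 other genes of the NRF2 pathway in 6 lists, 1 point per gene, for MitoPositive over MitoNegative, MitoPositive over monoculture and MitoNegative over monoculture. Filled points passed edgeR's test (adjusted p under 0.05) and vertical scatter within a list carries no value. The filled points beyond 6 are Gpx8, which had 0 counts in every monoculture library, so its fitted change depends on the prior count.

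Among 18 tested partners and regulators of NRF2, 6 rose and 5 fell in MitoPositive cells and 8 rose and 6 fell in MitoNegative cells relative to monoculture. These are 61.1% and 77.8% of the list, where 42.2% and 38.9% of all genes passed. Maff and Mafg encode small MAF proteins, the obligate partners of NRF2. Maff averaged 6.94 ± 0.877 CPM in MitoPositive, 7.68 ± 0.370 CPM in MitoNegative and 2.83 ± 0.216 CPM in monoculture libraries (SD, n = 3 each). Its log2 rise over monoculture was 1.29 ± 0.128 in MitoPositive (edgeR adjusted p = 1.19e-05) and 1.44 ± 0.128 in MitoNegative cells (edgeR adjusted p = 8.25e-06). Mafg rose by a log2 difference of 0.81 ± 0.144 in MitoPositive (edgeR adjusted p = 0.00107) and 0.72 ± 0.144 in MitoNegative cells (edgeR adjusted p = 0.00265).

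Bach1 encodes a repressor that competes with NRF2 for the same elements, Hmox1 among them. It fell to 36.3 ± 1.02 CPM in MitoPositive and 43.4 ± 1.25 CPM in MitoNegative libraries, against 53.1 ± 7.29 CPM in monoculture libraries. The log2 difference was -0.55 ± 0.0833 for MitoPositive (edgeR adjusted p = 0.000283) and -0.29 ± 0.0829 for MitoNegative cells (edgeR adjusted p = 0.0153). Sqstm1 encodes p62, an autophagy adaptor that binds KEAP1. It rose by a log2 difference of 0.45 ± 0.0691 in MitoPositive and 0.47 ± 0.0691 in MitoNegative cells.

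In the glutathione system 12 of 32 tested genes rose and 3 fell in MitoPositive cells, and 11 rose and 7 fell in MitoNegative cells, relative to monoculture. These are 46.9% and 56.2% of the list, beside the same 42.2% and 38.9% of all genes. The risers named by the rule were conjugating enzymes and a transporter subunit. Gstt1, a theta class glutathione transferase, averaged 6.50 ± 1.38 CPM in MitoPositive, 4.19 ± 0.806 CPM in MitoNegative and 1.03 ± 0.231 CPM in monoculture libraries. Its log2 rise was 2.66 ± 0.230 in MitoPositive (edgeR adjusted p = 4.44e-06) and 2.02 ± 0.228 in MitoNegative cells (edgeR adjusted p = 4.44e-05). Gstm4, a mu class transferase with close paralogs, rose by a log2 difference of 1.08 ± 0.142 in MitoPositive and 0.82 ± 0.142 in MitoNegative cells. Slc3a2, the heavy chain shared by the cystine exchanger and other amino acid transporters, averaged 148 ± 13.8 CPM in MitoPositive, 147 ± 7.86 CPM in MitoNegative and 87.1 ± 5.92 CPM in monoculture libraries, a log2 rise of 0.77 ± 0.0787 and 0.75 ± 0.0787 in the 2 co-cultured groups.

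Slc7a11 encodes the light chain of the cystine exchanger and is outside the rule for naming, so it was added after its values were seen. It stayed between 0.126 and 0.411 CPM in MitoPositive, between 0.193 and 0.487 CPM in MitoNegative and between 0.0828 and 0.216 CPM in monoculture libraries, and it did not pass the test in any comparison. Gss, the enzyme after glutamate-cysteine ligase, was added in the same way. Unlike Gclc and Gclm it was higher in co-culture, with 27.4 ± 0.553 CPM in MitoPositive and 24.6 ± 1.02 CPM in MitoNegative libraries, against 18.0 ± 0.419 CPM in monoculture libraries (edgeR adjusted p = 1.31e-05 and 0.000145).

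In the thioredoxin and peroxiredoxin system 2 of 16 tested genes rose and 4 fell in MitoPositive cells, and 3 rose and 2 fell in MitoNegative cells, relative to monoculture. The shares of the list, 37.5% and 31.2%, were below the 42.2% and 38.9% of all genes. Sesn1, a sestrin that restrains growth signalling and is known as a target of p53 and FOXO factors, fell to 40.7 ± 0.861 CPM in MitoPositive and 44.0 ± 3.60 CPM in MitoNegative libraries, against 128 ± 8.52 CPM in monoculture libraries. The log2 difference was -1.65 ± 0.0714 for MitoPositive (edgeR adjusted p = 3.88e-08) and -1.54 ± 0.0711 for MitoNegative cells (edgeR adjusted p = 1.07e-07). Prdx4, the peroxiredoxin of the endoplasmic reticulum, fell by 0.88 on the log2 scale in MitoPositive and by 1.05 in MitoNegative cells. Sesn2, the relative of Sesn1, rose, by a log2 difference of 0.56 ± 0.102 in MitoPositive and 0.37 ± 0.102 in MitoNegative cells (edgeR adjusted p = 0.0128). The call of Sesn2 in MitoNegative cells was lost without MitoNegative D (adjusted p = 0.0508) and without monoculture B (adjusted p = 0.0537).

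Genes that supply NADPH, the source of electrons for both systems, were 14 among those tested. Relative to monoculture 2 rose and 6 fell in each co-cultured group. These are 57.1% of the list in each, beside 42.2% of all genes in MitoPositive and 38.9% in MitoNegative cells. Idh1, the cytosolic isocitrate dehydrogenase, fell to 4.22 ± 0.428 CPM in MitoPositive and 4.08 ± 0.445 CPM in MitoNegative libraries, against 7.79 ± 0.448 CPM in monoculture libraries (edgeR adjusted p = 0.000198 and 0.000175). G6pdx, which opens the pentose phosphate pathway, fell by 0.40 on the log2 scale in MitoPositive and by 0.45 in MitoNegative cells. Nadk2, the mitochondrial NAD kinase, fell by 0.53 and 0.42 in the same groups. Idh2, the mitochondrial isocitrate dehydrogenase, differed from monoculture by -0.41 ± 0.123 on the log2 scale in MitoPositive cells (edgeR adjusted p = 0.0221). That call was lost without MitoPositive B (adjusted p = 0.0729), MitoPositive C (adjusted p = 0.0742) or monoculture D (adjusted p = 0.0903), and with no filter on low counts (adjusted p = 0.0762).

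Among 11 tested genes of heme and iron 2 rose and 2 fell in MitoPositive cells, and 3 rose and 2 fell in MitoNegative cells, relative to monoculture. The shares of the list, 36.4% and 45.5%, were near the 42.2% and 38.9% of all genes. Tfrc, the transferrin receptor that brings iron into dividing cells, averaged 286 ± 10.9 CPM in MitoPositive and 270 ± 1.07 CPM in MitoNegative libraries, against 63.4 ± 17.2 CPM in monoculture libraries. Its log2 rise was 2.17 ± 0.155 in MitoPositive (edgeR adjusted p = 5.18e-06) and 2.09 ± 0.154 in MitoNegative cells (edgeR adjusted p = 9.50e-06). Slc48a1, a heme transporter of endosomes and lysosomes, rose by a log2 difference of 0.62 ± 0.0672 in MitoPositive and 0.63 ± 0.0672 in MitoNegative cells. Flvcr1, described as a heme exporter, fell by 0.29 on the log2 scale in MitoNegative cells (edgeR adjusted p = 0.00227). Blvrb, which reduces biliverdin, differed by -0.43 ± 0.141 in MitoPositive cells (edgeR adjusted p = 0.0268), a call lost without MitoPositive B (adjusted p = 0.0936), MitoPositive C (adjusted p = 0.0836) or monoculture D (log2 difference -0.26, adjusted p = 0.119).

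Ftl1, the ferritin light chain and a classical NRF2 target, was the 1 gene of the 6 lists that passed for MitoPositive over MitoNegative when the replicate letter was a block, and it was named after its values were seen. It had 344 to 372 CPM in MitoPositive and 444 to 489 CPM in MitoNegative libraries, with no overlap, beside 377 to 440 CPM in monoculture libraries. The log2 difference between MitoPositive and MitoNegative cells was -0.36 ± 0.0741. Its edgeR adjusted p was 0.0689, and 0.0267 when the letter was a block.

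In detoxification and radical scavenging 6 of 15 tested genes rose and 5 fell in MitoPositive cells, and 5 rose and 5 fell in MitoNegative cells, relative to monoculture. These are 73.3% and 66.7% of the list, beside 42.2% and 38.9% of all genes. Trim16, a ubiquitin ligase described as a partner of the NRF2 and p62 response, averaged 4.26 ± 0.592 CPM in MitoPositive, 2.76 ± 0.149 CPM in MitoNegative and 1.01 ± 0.179 CPM in monoculture libraries. Its log2 rise over monoculture was 2.08 ± 0.178 in MitoPositive (edgeR adjusted p = 4.26e-06) and 1.45 ± 0.178 in MitoNegative cells (edgeR adjusted p = 8.03e-05). Between MitoPositive and MitoNegative cells its log2 difference was 0.62 ± 0.166, which did not pass edgeR's test (adjusted p = 0.154) and passed DESeq2's (adjusted p = 0.0189).

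Ptgr1, a reductase of lipid aldehydes and prostaglandins, averaged 7.47 ± 0.694 CPM in MitoPositive, 5.80 ± 0.194 CPM in MitoNegative and 3.02 ± 0.583 CPM in monoculture libraries, a log2 rise of 1.31 ± 0.146 and 0.94 ± 0.146. Ephx1, the microsomal epoxide hydrolase, fell by 0.67 on the log2 scale in MitoPositive and by 0.82 in MitoNegative cells. Nqo2, the relative of Nqo1 that uses another electron donor, fell by 0.72 in MitoPositive and by 0.77 in MitoNegative cells.

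Transcripts of the stromal partner were present in the sorted co-cultured cells. The summed level of 24 stromal markers was 42.7, 53.7 and 20.3 CPM in MitoPositive, 46.2, 54.8 and 20.9 CPM in MitoNegative and 7.57, 6.88 and 6.34 CPM in monoculture libraries B, C and D. Most of each monoculture sum was Thbs1 alone, at 6.64, 5.35 and 4.90 CPM, and Thbs1 was 2.76 to 5.84 CPM in the co-cultured libraries. Of the 24 markers, 11 were at 0 in every monoculture library (Col1a2, Col3a1, Col5a2, Sparc, Lum, Dcn, Postn, Pdgfra, Bgn, Ccn2 and Cxcl12). Of 22 markers tested, 20 rose in MitoPositive and 20 in MitoNegative cells relative to monoculture, where 42.2% and 38.9% of all genes passed. For MitoPositive over MitoNegative 0 passed, where 0.165% of all genes did. In that comparison 1 marker had p under 0.05 before adjustment, and neither DESeq2 nor limma voom called any.

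In replicate D the stromal sum was under that of B and C in both co-cultured groups. Osgin1 in that letter was 31.6 CPM in MitoPositive and 38.2 CPM in MitoNegative cells, the highest value of each group, against 5.27 CPM in monoculture. Hmox1 was 4.04 CPM in MitoPositive D, its lowest co-cultured value, and 4.79 CPM in MitoNegative D, against 1.26 CPM in monoculture D. Srxn1 in replicate D was 2.50 CPM in MitoPositive and 1.39 CPM in MitoNegative cells, the lowest value of each group, against 0.778 CPM in monoculture D. The part of stromal RNA in the levels of Osgin1, Hmox1, Srxn1 and the listed genes was not tested.

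**Figure D5:**
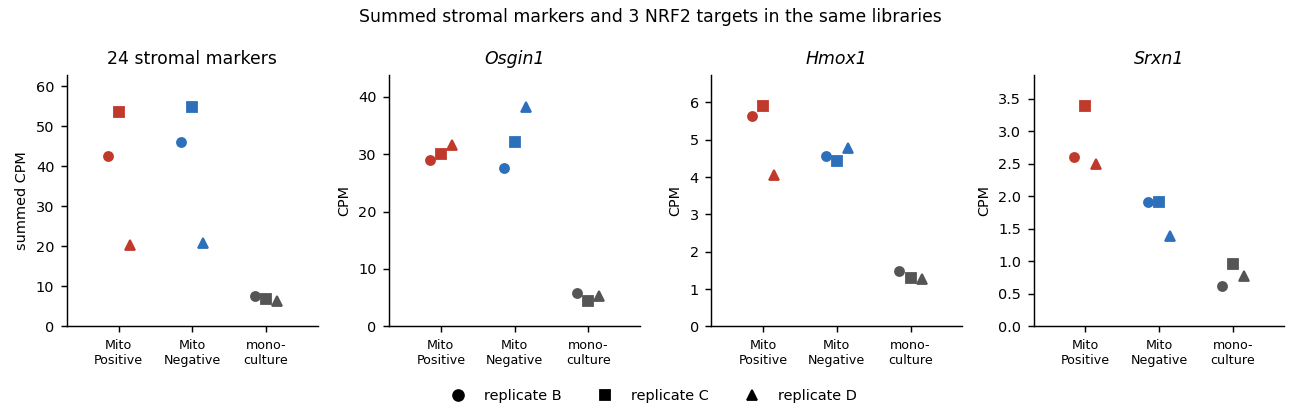
Summed CPM of 24 stromal markers and CPM of Osgin1, Hmox1 and Srxn1 in the same 9 libraries, with MitoPositive, MitoNegative and monoculture from left to right and a shape for each replicate letter. The stromal sum of replicate D is 20.3 CPM in MitoPositive and 20.9 CPM in MitoNegative cells. In replicate D of these 2 groups Osgin1 is at 31.6 and 38.2 CPM, Hmox1 at 4.04 and 4.79 CPM, and Srxn1 at 2.50 and 1.39 CPM.

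The identity of the sorted cells was read from other markers. All 12 CD8+ T-cell markers were present in every group, with summed levels of 9478 to 9971 CPM in MitoPositive, 9325 to 9849 CPM in MitoNegative and 10818 to 12172 CPM in monoculture libraries. Most of these markers are not limited to CD8+ T cells. The 4 CD4+ T-cell markers summed to 49.3 to 59.5, 45.4 to 47.9 and 51.1 to 54.1 CPM in the same groups, mostly from Zbtb7b. Over the 9 libraries Cd8a was 1066 to 1319 CPM and Cd4 was 0.633 to 3.39 CPM. B-cell markers summed to 278 to 310 CPM in MitoPositive, 367 to 461 CPM in MitoNegative and 686 to 759 CPM in monoculture libraries, with none of 10 at 0 throughout a group. Most of each sum was Ighm alone, with 259 to 277 CPM in MitoPositive, 340 to 425 CPM in MitoNegative and 590 to 658 CPM in monoculture libraries. Dendritic and class II markers summed to 60.9 to 87.5, 56.0 to 84.2 and 124 to 188 CPM in the same groups. Of 8 tested, 1 rose and 3 fell in MitoPositive and 1 rose and 4 fell in MitoNegative cells relative to monoculture. These are 50% and 62.5% of those tested, beside 42.2% and 38.9% of all genes. Zbtb46 was 3.44 to 4.10 CPM in co-cultured and 0.787 to 1.55 CPM in monoculture libraries. Myeloid markers summed to 14.4 to 18.2, 16.5 to 23.1 and 8.69 to 12.7 CPM in MitoPositive, MitoNegative and monoculture libraries. C1qa, C1qc and Csf3r were at 0 in all 9 libraries. Most of each sum was Mpeg1 and Cd68, and the markers differed in direction. Of 8 tested, 2 rose and 3 fell in MitoPositive and 2 rose and 2 fell in MitoNegative cells relative to monoculture. These are 62.5% and 50% of those tested, beside 42.2% and 38.9% of all genes. Adgre1 was 0.688 to 0.981 CPM in monoculture and at most 0.344 CPM in co-cultured libraries. Natural killer markers summed to at most 21.6 CPM, erythroid markers to at most 0.363 CPM, and the part of these cells in the levels of Gclm, Gclc and Txnrd1, which were highest in monoculture like the B-cell and class II markers, was not tested.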

How the data were processed

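RNA was sequenced from 9 libraries, 3 each of MitoPositive, MitoNegative and monoculture CD8+ T cells. The deposited values are raw counts per gene, which the authors made with bcl2fastq, cutadapt, STAR 2.7 and featureCounts on GRCm38, with DESeq2 also named, per the submitters' processing notes. The sources used here do not give the annotation release or the strandedness. Of 55421 gene identifiers, 54673 matched GENCODE M21, all with the same coordinates. A further 99 spike-in rows held 0 counts and were left out.

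The 10 genes and all gene and marker lists were chosen with earlier results of these data known. The count analysis used edgeR 4.0.16 in R 4.3.3. The filter was filterByExpr (minimum count 10, minimum total 15), which left 15711 genes and at least 99.96% of each library's counts. TMM scaling gave factors of 0.943 to 1.02, and CPM use the scaled library sizes. RPKM divide CPM by the exon length in the deposited annotation. A robust quasi-likelihood fit by group over the 9 libraries left 6 residual degrees of freedom. Benjamini-Hochberg adjustment ran over all genes kept, with a threshold of 0.05. Replicates of a group differed by more than sampling noise (chi-square per degree of freedom 17.6 to 61.2).

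Whether replicate letters pair libraries was read from how the residuals of same-letter libraries correlate, with a threshold of 0.1. For B, C and D the correlation was 0.402, 0.339 and 0.459 between MitoPositive and MitoNegative, 0.213, 0.153 and 0.111 between MitoNegative and monoculture, and 0.248, 0.0521 and 0.163 between MitoPositive and monoculture. By this threshold the letters pair libraries in the first and second of these comparisons. The main fit nevertheless had no term for the letter, so its standard errors and adjusted p-values are unpaired. The letter entered as a block only in an alternative fit, which covered every comparison and left 4 degrees of freedom.

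Of each pathway list, up to 3 passing genes with the largest change and a mean log2 CPM of at least 1 were named per comparison. Alternatives were DESeq2 size factors, total counts, DESeq2 1.42.0, limma voom 3.58.1, no filter, a filter of 50 counts in 3 libraries, a fit of the compared groups alone, the block, leaving out each library, and, chosen after seeing the data, leaving out each letter in all groups.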

Additional observations from a re-analysis of the deposited data

How the results depend on the processing

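Counts are of genes with adjusted p under 0.05. For MitoPositive over MitoNegative the count over all genes was 26 by the main edgeR fit, and it was 15 with DESeq2 size factors, 14 with total counts, 418 with DESeq2, 68 with limma voom, 171 with no filter, 4 with the stricter filter and 65 with the compared groups alone. With the replicate block it was 367. Leaving out 1 library gave 1 to 120: omitting MitoPositive B, C or D left 3, 1 or 105, omitting MitoNegative B, C or D left 1, 1 or 13, and omitting monoculture B, C or D left 51, 10 or 120. Leaving out a letter in all groups, chosen after seeing the data, gave 0 without B and 0 without C, where 996 and 580 genes had an unadjusted p under 0.05, and 120 without D. The higher share of these calls was 53.8%, against 66.7% with DESeq2 size factors and 71.4% with total counts.

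Of the 106 pathway genes, 0 passed for MitoPositive over MitoNegative by edgeR, 5 with DESeq2 (Ftl1 lower; Ggct, Glrx, Glrx3 and Trim16 higher), 1 with no filter (Ftl1), 1 with the replicate block (Ftl1) and 2 with the compared groups alone (Ftl1 and Glrx). Leaving out 1 library gave 0 to 2, the 2 without monoculture D, and leaving out letter D gave 2, in both cases Ftl1 and Glrx. These genes were named after their values were seen. Leaving out 1 library gave 5484 to 6695 genes for MitoPositive over monoculture, where the main fit gave 6637, and 4921 to 6037 for MitoNegative over monoculture, where it gave 6110. For the pathway genes it gave 45 to 55 where the main fit gave 55, and 48 to 57 where it gave 60. Without letter C in all groups the counts were 4122 genes for MitoPositive over monoculture, and 3495 genes and 37 pathway genes for MitoNegative over monoculture. Fewer libraries enter these fits.

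Of 597 values of the 10 genes under the alternatives, 591 moved by less than the spread between replicates. The sign changed in 9, for Osgin1, Nqo1 and Gclm between MitoPositive and MitoNegative cells, and for Prdx1 in MitoPositive cells over monoculture. Of 720 values of the named pathway genes, 704 kept their direction and call, 16 lost the call and 0 changed direction. Flvcr1 in MitoNegative cells lost it without letter C (adjusted p = 0.0707). The replicate block changed no call of the pathway genes named by the rule. Nqo1 is limited by its depth of 4 to 19 counts per library.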
